A study of Homo sapiens with 6 samples.

Results

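The genes described here are the 10 nuclear genes POLRMT, TFAM, TFB1M, TFB2M, TEFM, LRPPRC, SLIRP, POLG, PNPT1 and SUPV3L1, whose proteins copy the mitochondrial genome or make, protect and degrade its RNA. They were chosen by name, and all 10 were found by the symbol column of the deposited expression table and by their Ensembl identifiers among the 57905 genes of the deposited count table. NALM6 is an established human line of leukemic B-cell precursors. THZ1 binds covalently to the kinase CDK7, which helps RNA polymerase II to initiate transcription in the nucleus. RNA-SEQ was performed on 3 libraries from DMSO-treated NALM6 cells, the solvent control, and 3 libraries from cells given THZ1 at 500 nM, both for 24 h. The labels give no other agent and do not say whether the 3 libraries of a treatment came from separate cultures, so the p-values measure the spread between these libraries only.

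The circular genome of human mitochondria encodes messenger RNAs for subunits of the respiratory chain, ribosomal RNAs and transfer RNAs, while every protein that transcribes and processes it is imported from the cytosol. POLRMT is the single-subunit RNA polymerase of the organelle, TFAM packages its DNA and marks the promoters, TFB2M opens the promoter with POLRMT, and TEFM keeps the polymerase elongating. The transcripts are long and carry many genes, so the level of each mature RNA depends also on stabilizing proteins (LRPPRC with SLIRP) and on the degrading pair of PNPT1 and the helicase SUPV3L1. POLG is the catalytic subunit of the DNA polymerase that replicates the same genome.

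Promoter windows are shown first for the genes at which the data turned: POLRMT, the gene with the highest fold change of the 10, TFB2M and its paralog TFB1M, and LRPPRC, the gene with the lowest. The sequences are the 250 bases before the annotated start, on the strand of the gene, from RefSeq on GRCh38.p14 (not the build of the counts, which is GRCh37), and all 10 genes had an entry. Capitals mark letters of the NRF1-type word GCATGCGC or the ETS-type word CCGGAAG on either strand. The NRF1-type match in TFB1M and the one nearest to the start in POLRMT are 2 overlapping matches, 1 on each strand, of a palindromic run.
POLRMT, chr19:633538-633787, minus strand: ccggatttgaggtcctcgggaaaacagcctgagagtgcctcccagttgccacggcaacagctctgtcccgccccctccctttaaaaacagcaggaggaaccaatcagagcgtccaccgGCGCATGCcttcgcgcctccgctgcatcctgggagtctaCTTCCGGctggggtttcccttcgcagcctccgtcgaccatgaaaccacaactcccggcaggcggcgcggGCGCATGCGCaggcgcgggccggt
TFB2M, chr1:246566262-246566511, minus strand: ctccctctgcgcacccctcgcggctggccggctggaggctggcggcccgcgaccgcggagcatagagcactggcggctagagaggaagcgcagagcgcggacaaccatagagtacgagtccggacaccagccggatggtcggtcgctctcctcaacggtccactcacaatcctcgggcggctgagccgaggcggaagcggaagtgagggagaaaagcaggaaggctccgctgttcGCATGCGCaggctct
TFB1M, chr6:155314485-155314734, minus strand: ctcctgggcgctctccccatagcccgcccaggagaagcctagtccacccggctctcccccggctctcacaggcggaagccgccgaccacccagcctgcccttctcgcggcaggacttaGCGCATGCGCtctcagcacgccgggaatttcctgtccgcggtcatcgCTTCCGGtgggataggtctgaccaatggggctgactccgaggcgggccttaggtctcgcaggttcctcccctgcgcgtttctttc
LRPPRC, chr2:43995990-43996239, minus strand: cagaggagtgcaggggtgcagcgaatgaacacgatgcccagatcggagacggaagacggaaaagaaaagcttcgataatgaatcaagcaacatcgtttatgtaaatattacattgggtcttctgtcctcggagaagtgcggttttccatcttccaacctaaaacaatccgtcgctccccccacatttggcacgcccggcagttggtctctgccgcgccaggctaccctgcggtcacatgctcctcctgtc
In windows of 300 bases (250 before and 50 after the start), the NRF1-type word was found in 3 of the 10 genes, POLRMT, TFB2M and TFB1M, against 5.23% of the 9719 protein-coding genes tested that had a window and 3.10% of all 27305 windows. The ETS-type word was found in 4 genes, POLRMT, TEFM, TFB1M and SLIRP, against 19.1% of the protein-coding genes tested. The E-box word CACGTG was in none of the 10 windows (9.83% of the protein-coding genes tested), and TATAAA was in 1, POLG (5.83%). The words were chosen from general knowledge and the NRF1-type word was set after the sequences had been read. A match describes letters and not a bound site. POLRMT and TFB1M were the only genes of the 10 whose windows held both the NRF1-type and the ETS-type word, and their log2 fold changes with THZ1 were 0.72 and −0.59.

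Gene counts summed to between 11015480 and 11164840 in a DMSO-treated library and to between 7876402 and 8314306 in a THZ1-treated one, so every THZ1-treated library was shallower. Levels are given as CPM, counts scaled to a common library size. The marker sums that follow use library sizes alone, and all other CPM values here include the TMM factors. All 7 B-cell precursor markers checked were tested, and their summed level was 2234 to 2293 CPM with DMSO and 1037 to 1076 CPM with THZ1. Of the markers of other cells, 4 T-cell genes summed to at most 0.889 CPM in any library. The 4 myeloid markers summed to between 4.12 and 5.08 CPM with DMSO and to between 15.6 and 16.5 CPM with THZ1. They did not move together: CD14 and CSF1R were called higher, LYZ lower (log2 fold change −0.83), and MPO was not called. The 4 stromal or epithelial markers summed to 3.54 to 4.89 CPM with DMSO and 14.3 to 14.7 CPM with THZ1. Of them only COL1A1 had enough counts to be tested, and it was called higher. The part of these markers in the results was not tested. Counts were scaled between libraries by TMM, under the assumption that most genes do not change in share, and were tested with the quasi-likelihood test of edgeR. By that test 41.1% of the genes tested were called lower and 43.5% higher, so the assumption is in doubt here. The direction of small changes therefore depends on the scaling. Adjusted p-values below are from this test, corrected by the Benjamini-Hochberg procedure across the 16622 genes that passed the filter on low counts. CPM is a share of a library, and in a bulk sample fewer cells and less RNA per cell cannot be told apart.

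All 10 genes passed the filter, and the lowest count of any of them in any library was 49, in TFB1M. With THZ1, 7 of the 10 were downregulated (LRPPRC, PNPT1, POLG, SUPV3L1, SLIRP, TFB1M and TEFM), 2 were upregulated (POLRMT and TFAM) and TFB2M was not called at an adjusted p-value below 0.05. Over all genes tested 41.1% were lower and 43.5% higher by the same rule, and over the 11929 protein-coding genes tested 47.6% were lower and 36.3% higher. The median log2 fold change of the 10 genes was −0.66, compared with 0.03 over all genes tested and −0.20 over the protein-coding genes. Only LRPPRC passed the fold threshold of the study, a log2 fold change of 1.5 in size, which 12.9% of all genes tested passed as lower and 24.6% as higher. The 2 treatments were separate in every one of the 10 genes, TFB2M included, as for 84.7% of all genes tested. The split between directions depended on the scaling. With upper quartile factors 6 of the 10 genes were lower and 2 higher (36.0% and 48.0% of all genes), and with library sizes alone 8 were lower and 1 higher (48.0% and 38.0% of all genes).

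**Figure D1:**
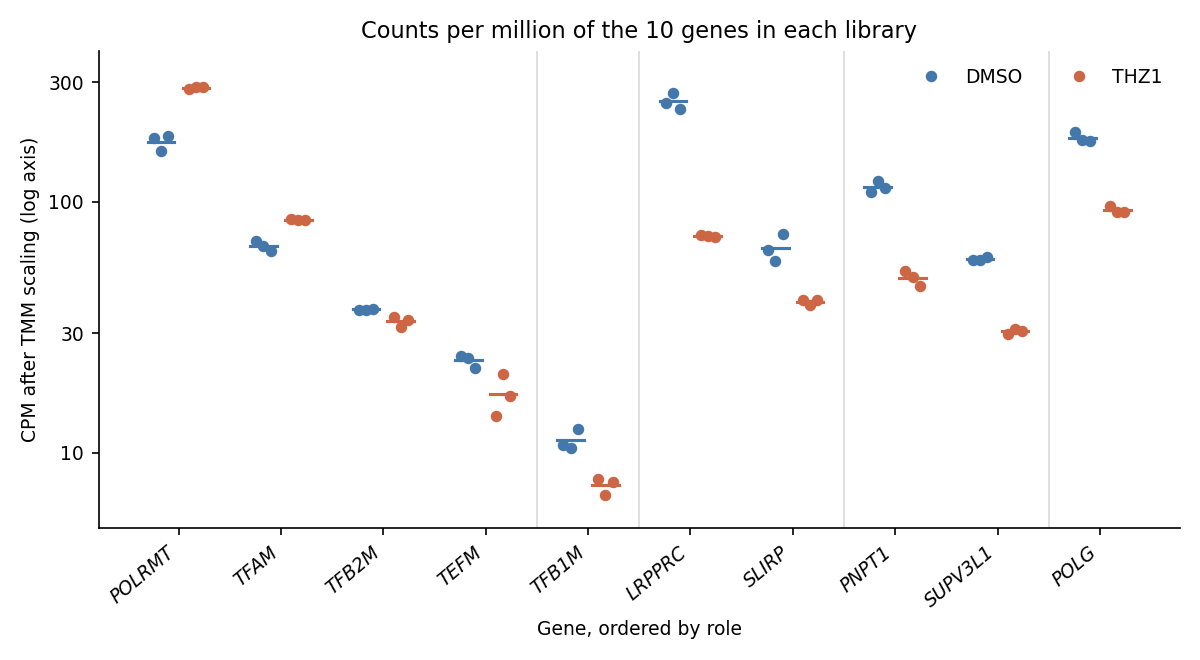
CPM after TMM scaling (log axis) of each of the 10 genes in the 3 DMSO-treated (blue) and 3 THZ1-treated (orange) libraries, with a short line at each mean and grey lines between roles. POLRMT and TFAM lie higher in every THZ1-treated library and the other 8 genes lie lower.

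POLRMT (ENSG00000099821), on chromosome 19 from 617221 to 633537 of GRCh37, was the most strongly upregulated gene of the group. It had 179, 159 and 184 CPM in the DMSO-treated libraries and 282, 286 and 288 CPM in the THZ1-treated libraries. Every THZ1-treated library was thus higher than every DMSO-treated one. The spread was smaller with THZ1, as it was between replicate libraries over genes in general. The mean rose from 174 ± 13.3 to 285 ± 3.20 CPM (SD, n = 3 libraries each), which gave 0.72 as the log2 fold change (standard error, SE, 0.07, with a 95% interval of 0.57 to 0.86 and an adjusted p of 5.2e-11 by edgeR). The raw counts, by contrast, were close between treatments, with 1937 to 2177 in the deeper DMSO-treated libraries and 2069 to 2154 with THZ1. The change of POLRMT lay at the 64.8th percentile of all genes tested. It kept its direction and its call in all 17 other settings of the scaling, the filter, the tool or the libraries (the fold threshold aside), with log2 fold changes from 0.47 to 0.91.

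TFAM (ENSG00000108064, chromosome 10 from 60145105 to 60158980), the DNA-packaging and promoter-binding factor, was the other upregulated gene. Its levels were 69.7, 66.6 and 63.5 CPM with DMSO and 85.5, 84.6 and 84.4 CPM with THZ1. The groups did not overlap, but the rise was only 1.27-fold (log2 fold change 0.35, SE 0.08, adjusted p = 0.00014 by edgeR). This call rested on the scaling: with library sizes alone the log2 fold change was 0.10 with an adjusted p of 0.24, the highest of the 17 other settings, whose lowest was 1.7e-07.

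TFB2M (ENSG00000162851, chromosome 1 from 246703863 to 246729563), the initiation factor that works with POLRMT, had nearly equal levels. The DMSO-treated libraries had 37.2, 37.2 and 37.5 CPM and the THZ1-treated libraries 34.8, 31.8 and 34.0 CPM. The 3 DMSO-treated values were almost identical and all lay above the THZ1-treated ones. The log2 fold change of −0.15 had a 95% interval from −0.35 to 0.04 and did not pass the test (adjusted p = 0.14 by edgeR). Its direction was not fixed either. With upper quartile factors it was 0.04, with library sizes alone −0.40, and the adjusted p ranged from 0.00038 to 0.85 over the 17 other settings, of which 5 called it lower.

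TEFM (ENSG00000172171, chromosome 17 from 29224354 to 29233256), the elongation factor, was downregulated and, relative to its mean, had the widest spread of the 10 genes with THZ1. With DMSO it was at 24.4, 23.9 and 21.9 CPM, compared with 14.1, 20.6 and 16.8 CPM with THZ1. THZ1 replicate 2, the highest of the 3, lay just below the lowest DMSO-treated library. The log2 fold change was −0.45 (SE 0.13, adjusted p = 0.0022 by edgeR), and it lay between −0.61 and −0.33 when any 1 library was left out. With upper quartile factors the adjusted p rose to 0.070 and the call was lost, while the lowest over the other settings was 2.3e-05.

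TFB1M (ENSG00000029639, chromosome 6 from 155577268 to 155635627) is the paralog of TFB2M that methylates the small ribosomal RNA of the organelle. It was the least abundant gene of the 10, with 10.7, 10.5 and 12.5 CPM with DMSO and 7.89, 6.78 and 7.62 CPM with THZ1. Its log2 fold change was −0.59 (SE 0.17, adjusted p = 0.0016 by edgeR), whereas the deposited log2 FPKM values gave −1.11. In the annotation, TIAM2 shares exonic bases with TFB1M on the opposite strand, and the non-coding gene ENSG00000235381 does so on the same strand. The level of TIAM2 fell from a mean of 7.02 to 3.0 CPM. Since the sources used here do not give the strand setting of the counting, reads shared with these genes cannot be told apart.

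LRPPRC (ENSG00000138095, chromosome 2 from 44113363 to 44223365), which binds mitochondrial messenger RNAs and keeps them stable and polyadenylated, showed the deepest fall. The DMSO-treated libraries had 248, 272 and 235 CPM and the THZ1-treated libraries 73.9, 73.2 and 72.7 CPM. The 3 THZ1-treated libraries differed from each other by little and lay far below every DMSO-treated library. The mean fell from 252 ± 18.6 to 73.3 ± 0.590 CPM, and the fitted level with THZ1 was 29.1% of that with DMSO (log2 fold change −1.78, SE 0.08, adjusted p = 5.5e-20 by edgeR). This change lay at the 8.99th percentile of all genes tested, and it was between −2.03 and −1.59 in all 17 other settings.

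SLIRP (ENSG00000119705, chromosome 14 from 78174414 to 78227447), the small RNA-binding partner that LRPPRC needs for its stability, fell less. With DMSO it was at 64.5, 58.1 and 74.7 CPM, compared with 40.6, 38.9 and 40.5 CPM with THZ1. Its DMSO-treated libraries were uneven, with replicate 3 the highest, the library in which LRPPRC was lowest. DMSO replicates 2 and 3 also differed most over genes in general, with a chi-square per gene of 8.61. The other pairs of replicate libraries gave 1.78 to 3.86, so this order is not read as a trait of the 2 genes. The log2 fold change of SLIRP was −0.72 (SE 0.09, adjusted p = 3.4e-08 by edgeR), and all 17 other settings called it lower. SNW1 overlaps SLIRP on the opposite strand, at 91.7 CPM with DMSO and 88.9 CPM with THZ1 (adjusted p = 0.61 by edgeR). On the same strand SLIRP shares exonic bases with the non-coding gene C14orf178, which rose from 5.23 to 8.47 CPM (log2 fold change 0.70, adjusted p = 0.0014 by edgeR). Reads shared with either gene cannot be told apart.

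PNPT1 (ENSG00000138035, chromosome 2 from 55861196 to 55920998), the exonuclease PNPase, and SUPV3L1 (ENSG00000156502, chromosome 10 from 70939990 to 70968855), the helicase that unwinds RNA for it, were both downregulated. PNPT1 was at 110, 122 and 114 CPM with DMSO, compared with 53.1, 50.0 and 46.1 CPM with THZ1. For SUPV3L1 the values were 58.6, 58.9 and 60.4 CPM with DMSO, compared with 29.9, 31.0 and 30.6 CPM with THZ1. In both genes the groups lay far apart in relation to their spread. The log2 fold change was −1.21 for PNPT1 (SE 0.08, adjusted p = 1e-14 by edgeR) and −0.96 for SUPV3L1 (SE 0.09, adjusted p = 2.5e-11), and both were called lower in all 17 other settings.

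POLG (ENSG00000140521, chromosome 15 from 89848429 to 89878092) encodes the replicative DNA polymerase. With DMSO it was at 190, 176 and 175 CPM, compared with 95.9, 90.9 and 91.0 CPM with THZ1, and the groups did not overlap. Its log2 fold change of −0.96 (SE 0.07, adjusted p = 1.2e-13 by edgeR) equalled that of SUPV3L1 to 2 decimals. FANCI, a DNA repair gene that shares exonic bases with POLG on the opposite strand, fell more, from 221 to 50.6 CPM (log2 fold change −2.13). Reads shared between these genes cannot be told apart.

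**Figure D2:**
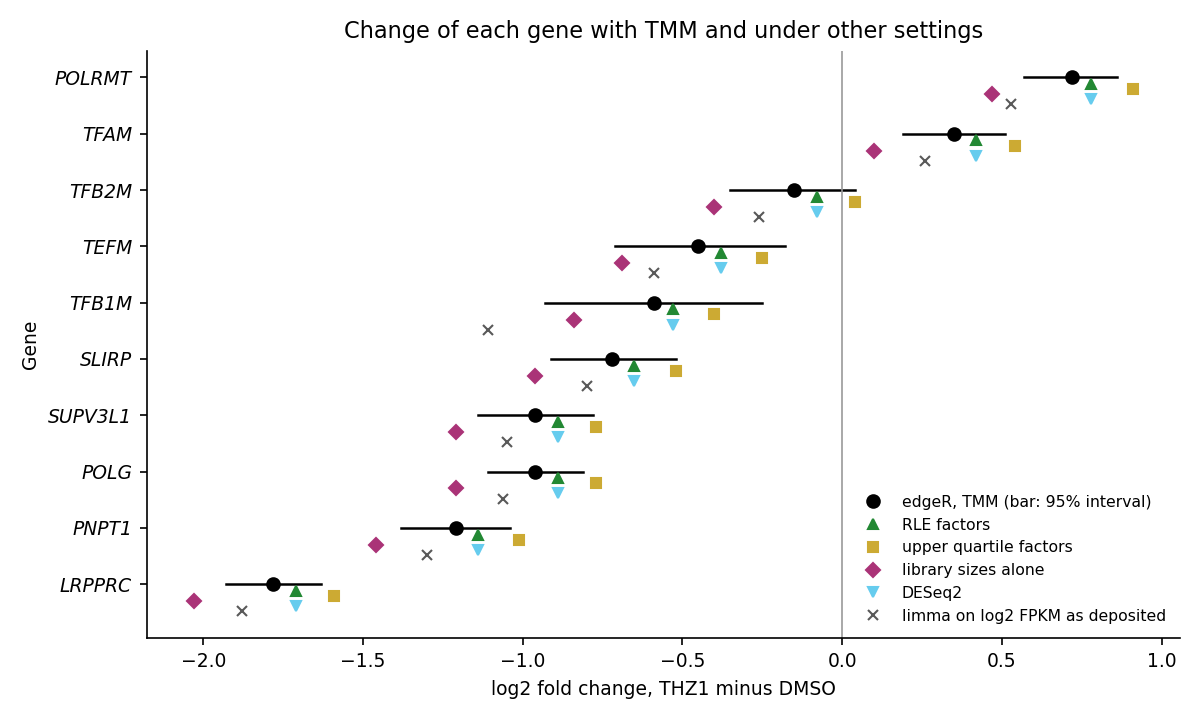
The log2 fold change (THZ1 minus DMSO) of each gene by edgeR with TMM scaling (black, with the 95% interval) and under 5 other settings (coloured marks). LRPPRC, PNPT1, POLG, SUPV3L1, SLIRP, TFB1M and TEFM lie left of 0 and POLRMT and TFAM right of 0 in every setting drawn, while TFB2M crosses 0 with upper quartile factors.

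Levels of different genes were compared per length, with the deposited FPKM values, which are on a log2 scale and were taken back to FPKM. With DMSO the order of mean FPKM was POLRMT (97.1 ± 3.98), POLG (75.9 ± 4.55), LRPPRC (71.1 ± 7.40), SLIRP (70.3 ± 6.84), PNPT1 (61.2 ± 4.47), TFB2M (58.9 ± 1.27), SUPV3L1 (38.5 ± 0.343), TFAM (35.1 ± 1.77), TEFM (24.9 ± 1.22) and TFB1M (8.40 ± 0.845). From POLG down to TFB2M each gene overlapped its direct neighbour in this order over the 3 libraries, so those neighbours do not differ beyond their spread. POLG lay above PNPT1 and TFB2M in every library, and LRPPRC and SLIRP lay above TFB2M. With THZ1 the order became POLRMT (141 ± 1.27), TFB2M (48.9 ± 2.29), TFAM (42.1 ± 0.230), SLIRP (39.8 ± 0.997), POLG (35.9 ± 1.17), PNPT1 (24.2 ± 1.81), LRPPRC (18.5 ± 0.105), SUPV3L1 (18.0 ± 0.344), TEFM (16.3 ± 3.30) and TFB1M (3.36 ± 0.365). Only SUPV3L1 and TEFM then overlapped as neighbours. LRPPRC and SUPV3L1 were barely apart, with a lowest value of 18.4 FPKM against a highest of 18.3 FPKM. The deposited values had been made alike within each treatment by an unnamed step, so their SDs and overlaps may understate the spread between libraries. POLRMT held the first and TFB1M the last place in both treatments, while TFB2M moved from the sixth to the second place and TFAM from the eighth to the third, and LRPPRC moved from the third to the seventh.

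**Figure D3:**
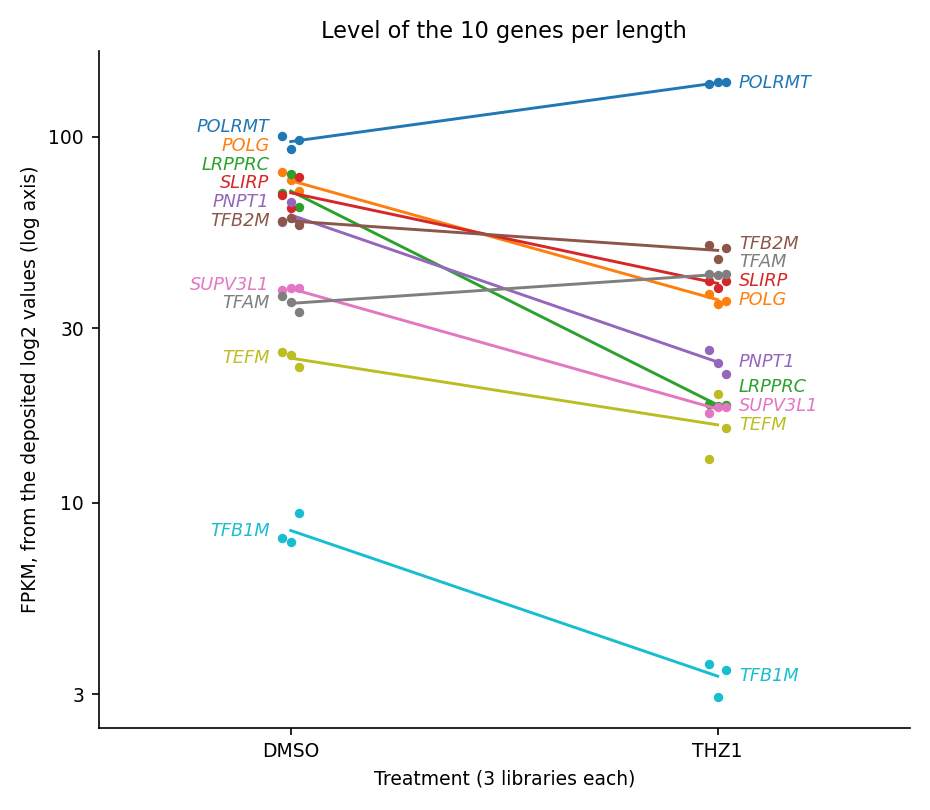
FPKM (log axis), taken back from the deposited log2 values, of the 10 genes in 3 DMSO-treated and 3 THZ1-treated libraries (points), with lines between the means. POLG, LRPPRC, SLIRP and PNPT1 fall past both TFAM and TFB2M, SUPV3L1 falls past TFAM, and POLRMT stands alone at the top with THZ1.

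To compare genes that work together without any scaling between libraries, the log2 ratio of their counts was taken within each library for 9 pairs. For LRPPRC over SLIRP the ratio was 1.94, 2.22 and 1.65 with DMSO and 0.86, 0.91 and 0.84 with THZ1. The ratio therefore fell by 1.07 on the log2 scale (SE 0.17), and it varied more among the DMSO-treated libraries than with THZ1. Over genes in general the replicate libraries also differed more with DMSO (chi-square per gene 2.9 to 8.61, against 1.78 to 2.22 with THZ1). PNPT1 over SUPV3L1 was closer to constant, with 0.90, 1.04 and 0.91 against 0.83, 0.69 and 0.59, a difference of −0.25 (SE 0.08). POLRMT gained on each of its cofactors. Its ratio to TFAM rose by 0.37 (SE 0.08), its ratio to TFB2M by 0.87 (SE 0.08) and its ratio to TEFM by 1.17 (SE 0.18). TFB2M over TFB1M rose by 0.44 from counts, but by 1.06 from the deposited FPKM values.

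The largest shift among the 9 pairs, which were chosen with earlier results known, was that between the RNA and the DNA polymerase of the organelle. It combines the log2 fold changes given above for POLRMT (0.72) and POLG (−0.96). POLRMT over POLG was −0.08, −0.15 and 0.07 with DMSO, near equal counts, and 1.55, 1.65 and 1.66 with THZ1, a rise of 1.68 (SE 0.07). POLG also fell against its accessory subunit POLG2, from 2.20, 2.19 and 2.22 to 0.64, 0.64 and 0.62, and against the replicative helicase TWNK, by 0.55 (SE 0.08). In all 9 pairs the 2 treatments did not overlap. Levels of single genes did not overlap for 84.7% of all genes tested, and the share over other pairs was not computed. Each pair gave p = 0.1 in a two-sided exact permutation test, the smallest that 3 libraries against 3 allow, and 0.1 after adjustment over the 9 pairs.

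**Figure D4:**
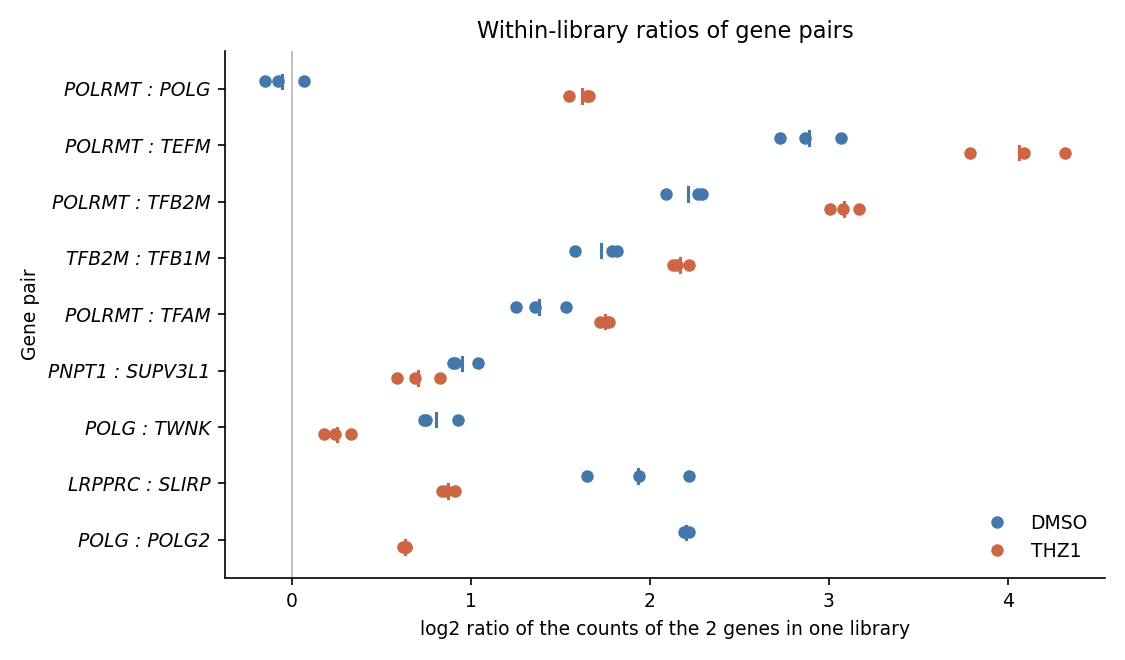
The log2 ratio of the counts of 2 genes in the same library for 9 pairs, with DMSO-treated libraries in blue, THZ1-treated libraries in orange and a short line at each mean. The treatments are separate in every pair, by 1.68 for POLRMT and POLG and by 0.25 for PNPT1 and SUPV3L1. They are also separate for the levels of 84.7% of single genes tested.

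Other genes of mitochondrial DNA maintenance were divided. Of 18 listed genes, all of them tested, 11 were lower, 5 higher and 2 not called, with a median log2 fold change of −0.62. These are 61.1% lower and 27.8% higher, beside 47.6% and 36.3% of the protein-coding genes tested. DNA2, a nuclease and helicase of both nucleus and mitochondria, fell by 1.76 on the log2 scale, from 53.4 ± 5.98 to 15.8 ± 1.31 CPM. The DNA ligase LIG3 fell by 1.49, the mitochondrial topoisomerase TOP1MT by 1.43 and the single-strand binding protein SSBP1 by 1.26. TWNK fell by only 0.40, whereas POLG2 rose by 0.61, from 39.1 ± 2.03 to 59.7 ± 1.81 CPM. The highest were the thymidine kinase TK2, which rose from 4.67 ± 0.405 to 30.4 ± 2.64 CPM (log2 fold change 2.7), the primer-removing nuclease RNASEH1 (1.67) and the exonuclease MGME1 (1.14). The adjusted p-values of these 9 genes lay between 2.7e-17 for TK2 and 1.7e-05 for TWNK by edgeR. With the deposited log2 FPKM values TK2 was higher by only 1.60 on the log2 scale (adjusted p = 2.3e-05 by limma).

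Among 40 listed genes that process or modify mitochondrial RNA, MRM1 was not matched, MTERF1 did not pass the filter and 38 were tested. Of these, 24 were lower, 9 higher and 5 not called, with a median log2 fold change of −0.44. As shares this was 63.2% lower and 23.7% higher, beside 47.6% and 36.3% of the protein-coding genes tested. LACTB2, an endoribonuclease, was the lowest, going from 7.37 ± 0.716 to 1.07 ± 0.593 CPM (log2 fold change −2.76). Its counts with THZ1 were 12, 3 and 9, near the floor of 3 counts, so the size of this fall is uncertain. MTERF2 fell by 1.36 and GRSF1, a protein of the mitochondrial RNA granules that works with the degrading pair, fell by 1.27, from 124 ± 2.27 to 51.2 ± 1.52 CPM. TRMT10C, a subunit of the enzyme that cuts the transfer RNAs out of the long transcripts, fell by 0.74. The oligoribonuclease REXO2 fell by 0.99 and the poly(A) polymerase MTPAP fell by 0.45. PDE12, which removes poly(A) tails, rose from 58.9 ± 5.26 to 124 ± 6.88 CPM (log2 fold change 1.08), and TRMT5 (0.92), PTCD1 (0.76) and FASTKD5 (0.57) were also higher. The adjusted p-values of these genes lay between 6.8e-16 for GRSF1 and 4.8e-05 for MTPAP by edgeR. The call of TRMT5 was lost with the deposited log2 FPKM values (0.21, adjusted p = 0.21 by limma).

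Of 14 listed nuclear regulators of mitochondrial biogenesis, PPARGC1A did not pass the filter. Of the 13 tested, 7 were lower, 2 higher and 4 not called, with a median log2 fold change of −0.34. The 53.8% lower was near the 47.6% of protein-coding genes tested, and the 15.4% higher lay below their 36.3%. MYC had the lowest log2 fold change, −2.89, followed by CREB1 with −1.56 and GABPB1 with −1.01. GABPA, which pairs with GABPB1 on ETS-type words, fell by 0.66, from 108 ± 8.07 to 68.8 ± 2.07 CPM. NRF1, the factor of the NRF1-type word, went from 25.5 ± 0.802 to 22.0 ± 1.64 CPM and was not called (log2 fold change −0.22, adjusted p = 0.071 by edgeR). The coactivator PPRC1 rose from 145 ± 7.16 to 225 ± 3.98 CPM (log2 fold change 0.63) and YY1 from 182 ± 5.03 to 243 ± 3.70 CPM (0.42), while SIRT1 (0.13, adjusted p = 0.17 by edgeR) was not called. The adjusted p-values of the called genes named lay between 3.2e-25 for MYC and 9.2e-07 for YY1 by edgeR. With library sizes alone NRF1 was called lower (−0.46, adjusted p = 0.00041 by edgeR) and SIRT1 turned to −0.12, and with upper quartile factors SIRT1 was called higher (0.32). The count of higher genes depended on the scaling and became 5 with upper quartile factors.

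The RNAs encoded by the mitochondrial genome took a larger share of the library with THZ1. The 13 messenger RNAs encoded in mitochondria held 4.11%, 4.12% and 4.06% of all counts with DMSO and 11.5%, 12.2% and 12.4% with THZ1. The 2 ribosomal RNAs held 0.174%, 0.181% and 0.169% against 0.953%, 1.08% and 1.03%. Over the same libraries the share of the 10 factors together fell from 0.109%, 0.109% and 0.104% to 0.0656%, 0.0655% and 0.0649%. The treatments did not overlap in any of these shares (two-sided exact permutation test, p = 0.1 for each with n = 3 per group, the smallest possible). All 15 mitochondrially encoded genes were higher by edgeR, with a median log2 fold change of 1.88. By the same rule 43.5% of all genes tested and 36.3% of the protein-coding genes tested were higher. The rise was lowest for MT-ND6 (1.31), MT-ATP6 (1.36) and MT-CO3 (1.42), and highest for MT-RNR2 (2.97), MT-ND4L (2.45) and MT-CYB (2.09). MT-ND6 is the only one of these genes on the light strand. The deposited log2 FPKM values differed here, since only 6 of the 11 mitochondrially encoded genes they contain were higher by limma. Of all genes in that fit 35.6% were higher. The log2 fold change was −0.14 for MT-ND6 and −0.19 for MT-CO3. Reads shared with nuclear copies of mitochondrial genes cannot be told apart here.

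**Figure D5:**
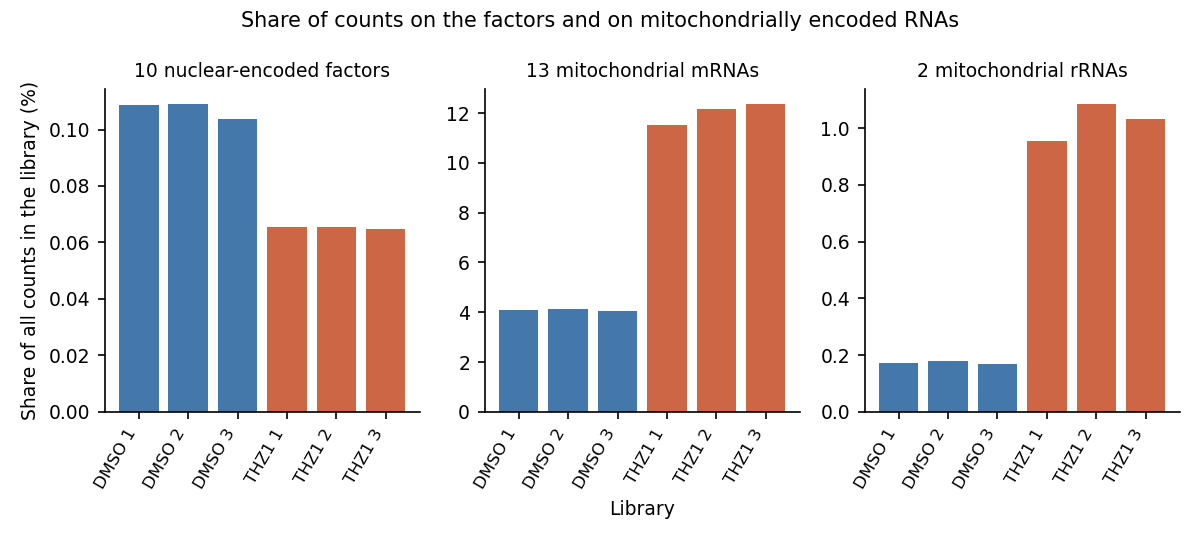
Percent of all counts in each library on the 10 nuclear-encoded factors (left), the 13 mitochondrial messenger RNAs (middle) and the 2 mitochondrial ribosomal RNAs (right), with a separate axis from 0 in each panel. The factors fall from about 0.11% to 0.065% while the messenger RNAs rise from about 4.1% to 12%.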

How the data were processed

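RNA-SEQ counts of 6 NALM6 libraries, 3 per treatment, were analysed. According to the methods and the processing notes, the authors trimmed the reads (cutadapt), mapped them to GRCh37 with STAR and counted reads per gene with htseq-count. Which annotation and strand setting were used is not given in the sources used here. The authors deposited raw counts per gene, used as they are. They also deposited log2 FPKM values (RSEM), read as log2(FPKM + 1), for 16730 genes. Within a treatment the sorted values of that table differed by a median of at most 0.0017, against at least 0.087 between treatments, so its libraries had been made alike within each treatment by an unnamed step. The same table holds p-values, FDR and log2 fold changes by the authors, which were not used.

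Genes were kept by filterByExpr (minimum count 10, minimum total 15) and scaled by TMM, leaving 16622, and were tested by edgeR's quasi-likelihood method (two-sided, Benjamini-Hochberg, call at an adjusted p below 0.05). Standard errors were taken as the fold change over the root of its F value, and 95% intervals from the t distribution with the degrees of freedom of edgeR. Pair ratios used counts plus 0.5. A floor of 3 counts was at most 0.253 CPM with DMSO and 0.415 CPM with THZ1, covering counting error only. Replicate libraries differed by more than sampling noise (chi-square per gene 2.9 to 8.61 with DMSO and 1.78 to 2.22 with THZ1). Loci are from GENCODE mapped to GRCh37, and promoters from RefSeq.

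The 10 genes, the pathway lists and the pairs were chosen with earlier results of these data known, and the lists are from general knowledge. Named were the 10 genes, the 3 highest and 3 lowest of each list, and POLG2, TWNK, SSBP1, TRMT10C, MTPAP, REXO2, GRSF1, FASTKD5, PPRC1, NRF1, GABPA and MYC for their role. For the highest and the lowest of the 10, the 3 genes nearest in pattern were named too. TIAM2, SNW1, C14orf178, FANCI and ENSG00000235381 were named because they overlap the 10. CD14, CSF1R, LYZ, MPO and COL1A1, chosen after their values were seen, are markers. The result of 1 marker list is not reported here.

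The steps were tested on simulated counts over 14421 genes for the same comparison. edgeR called 100% of genes lowered by 2 on the log2 scale, 94.1% of those lowered by 1 and 61.8% of those lowered by 0.5, and 7 of 14221 unchanged genes. The simulation differed from the data, since few of its genes changed, whereas 41.1% of the genes tested were called lower and 43.5% higher. These rates therefore do not show how the scaling performs when most genes change. The alternatives were RLE factors, upper quartile factors, library sizes alone, TMM without mitochondrially encoded genes, DESeq2, other filters, a replicate block, each library left out, the study's fold threshold and limma on the deposited log2 FPKM values with other pseudocounts and filters. R 4.3.3, edgeR 4.0.16, limma 3.58.1, DESeq2 1.42.0, Python 3.11.15, numpy 2.4.6, pandas 2.3.3 and matplotlib 3.10.9 were used.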

Additional observations from a re-analysis of the deposited data

How the results depend on the processing

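The 7 lower calls among the 10 genes became 1 and the 2 higher calls became 0 when the fold threshold of the study (1.5 on the log2 scale) was also required, and with library sizes alone 1 gene was higher. Under the same fold threshold, the genes of mitochondrial DNA maintenance gave 1 lower and 2 higher, those of mitochondrial RNA processing 1 lower and 0 higher, the nuclear regulators 2 lower and 0 higher, and all genes tested 2142 lower and 4088 higher. The higher nuclear regulators were 5 with upper quartile factors and 4 with at least 10 counts in every library, against 2. TFB2M reversed to 0.04 with upper quartile factors. Against TMM, the median over all genes moved by 0.19 (upper quartile factors) and −0.25 (no factors, library sizes only). Of the calls over all genes, 51.4% were higher, and 57.2% and 44.2% under these scalings. The mitochondrially encoded genes gave 6 higher calls of 11 in each of the limma settings on log2 FPKM, and 1 lower call with a mean FPKM of at least 1; the cause was not tested. The TFB2M to TFB1M ratio rose by 1.06 from FPKM, and the share on mitochondrially encoded genes rose by 7.91 percentage points for the messenger RNAs alone, against 8.76 for all 15.

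Leaving out 1 library at a time, the 10 genes gave 7 lower and 2 higher calls each time, and no named pair changed direction. Same-numbered libraries did not deviate together (correlations of −0.004, 0.000969 and 0.0206), so no shared replicate effect was seen. Whether the numbers pair the libraries by origin is not known, since the labels do not say. With a replicate block, 7 of the 10 genes were lower and 2 higher, and 6786 and 7181 of all genes. Every one of the 10 genes was far above the floor of 3 counts, so depth limits mainly TFB1M and TEFM, the least abundant.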

Other observations

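For the highest and the lowest of the 10 genes, the protein-coding genes with the most similar pattern over the 6 libraries were listed by the root mean square distance of gene-centred log2 CPM among 11928 genes. LRPPRC lay nearest to ZBED3 (0.0385), KTN1 (0.0387) and ALPK1 (0.0404), whose log2 fold changes were −1.83, −1.81 and −1.73. POLRMT lay nearest to CAMK2N1 (0.0131), SLC66A2 (0.0197) and CRELD1 (0.0323), with log2 fold changes of 0.72, 0.75 and 0.72. With 2 treatments, genes of similar fold change lie near each other by this measure.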
